A study of Arabidopsis thaliana with 12 samples.

Results

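The response of the Arabidopsis thaliana mutant irr to the immune peptide Pep1 was measured as the difference between 3 RNA-seq libraries of irr seedlings given Pep1 and 3 libraries of irr seedlings given water. These 6 libraries were taken by their column labels from the 12 libraries of the series. Genes were kept when they reached 1 FPKM in at least 3 of the 6 libraries, which left 17518 of the 32846 genes in the deposited table. FPKM is the number of sequenced fragments divided by gene length and by the library total, so levels of different genes can be compared.

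Plants cut small peptides, the Peps, out of PROPEP precursor proteins when cells are wounded or attacked. The receptor kinases PEPR1 and PEPR2 bind these peptides at the cell surface and, with the co-receptor BAK1, start the same kind of relay that bacterial and fungal patterns start, with calcium-dependent and MAP kinases, ethylene, jasmonate, defensins and indole defence compounds downstream. IRR, encoded by AT3G23900, is an RNA-binding protein that the published study places in the splicing of transcripts of CPK28, a calcium-dependent kinase that limits immune signalling.

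The groups were irr with 1 µM AtPep1, irr with water, wild type with 1 µM AtPep1 and wild type with water, with 3 libraries each, all in the Columbia 0 background. Whole seedlings 7 to 10 days old stood in liquid half-strength MS medium, about 15 to a well, and were harvested after 24 h of treatment in constant light. The control labels read untreated where the protocol names water, and the labels do not give the kind of irr allele. The submitters call the replicates biological, but nothing says whether each came from its own well, culture or day. The p-values therefore rest on the spread among these libraries alone, which may be technical. In whole seedlings, fewer cells of a type and less RNA per cell cannot be told apart.

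The depth was read from the steps between low FPKM values. It was 18.0, 17.7 and 18.1 M (mega) reads in irr Pep1 replicates 1, 2 and 3, against 24.6, 21.8 and 56.5 M in irr water replicates 1, 2 and 3. The wild-type libraries held 17.4 to 28.6 M. For a gene of 1 kb, 1 read was thus worth 0.0553 to 0.0564 FPKM in the irr Pep1 libraries and 0.0177 to 0.0459 FPKM in the irr water libraries. The steps do not tell reads from fragments, and depth covers counting error only. Both a root marker, the beta-glucosidase PYK10 with 291 to 553 FPKM over the 6 irr libraries, and the nuclear photosynthesis genes were well expressed, so root and shoot were both in the samples.

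Fold changes are differences of group means of log2(FPKM + 1), irr Pep1 minus irr water, with their standard error (SE). The added 1 shrinks the changes of low genes. The test was limma's moderated test over all 12 libraries with a spread shared by the 4 groups, and p-values were adjusted over all 17518 genes by Benjamini and Hochberg with a threshold of 0.05. Values of libraries are given in the order of replicates 1, 2 and 3. An unadjusted p under 0.05 was found by limma for 3207 of the 17518 genes tested in irr. Such counts in a list are to be read beside that share. A gene under 1 FPKM in every library of a group passed the filter only through the other group, so counts and medians over the measured members of a list describe those members and are no support for the list.

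AT3G23900 itself had 11.9, 10.8 and 11.0 FPKM in the irr Pep1 libraries, against 12.8, 11.6 and 11.5 FPKM in the irr water libraries. It had 10.7, 12.7 and 11.3 FPKM in wild-type Pep1 libraries and 10.7, 14.6 and 13.0 FPKM in wild-type water libraries. The ranges of all 4 groups overlapped, so the level of this gene did not check the genotype labels. CPK28 had 26.0, 27.8 and 15.4 FPKM in the irr Pep1 libraries, against 17.0, 14.5 and 15.6 FPKM in the irr water libraries. Replicates 1 and 2 with Pep1 were above every water library and replicate 3 lay among them, and the fold change of 0.49 ± 0.18 did not pass the test (adjusted p = 0.187).

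By their SD, the irr Pep1 libraries differed more among themselves than those of the other groups. The median SD of a gene over 3 libraries, on the log2(FPKM + 1) scale, was 0.18 in irr Pep1, 0.16 in irr water, 0.12 in wild-type Pep1 and 0.14 in wild-type water. The irr Pep1 group had the largest SD of the 4 groups in 7086 genes, 40.4% of those kept. An SD above 1 was found for 285 genes in irr Pep1, against 111 in irr water, 35 in wild-type Pep1 and 36 in wild-type water.

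**Figure D1:**
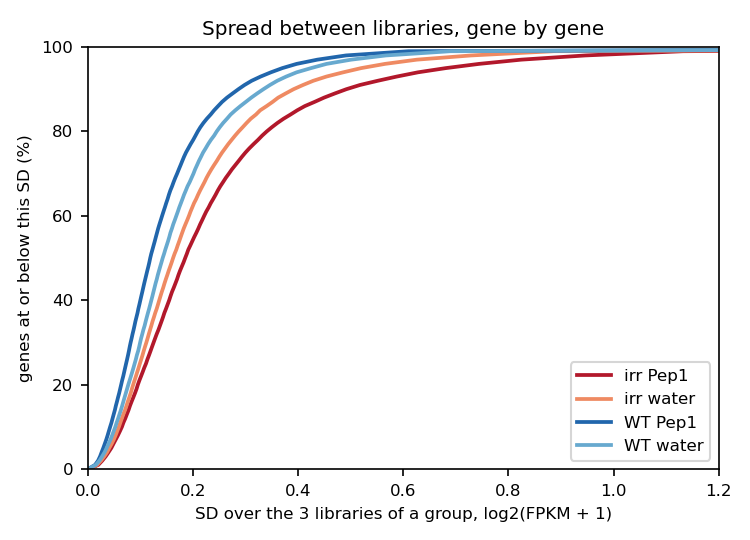
Cumulative share of genes (%, vertical axis) by their SD over the 3 libraries of a group on the log2(FPKM + 1) scale (horizontal axis), with a line for each group. The irr Pep1 line lies lowest, with a median of 0.18, and the wild-type Pep1 line highest, with a median of 0.12.

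Replicates 2 and 3 were the farthest apart. Spearman's rho across genes, which are not independent replicates, was 0.954 between irr Pep1 replicates 2 and 3 and 0.972 between replicate 1 and each of them. Replicate 2 exceeded replicate 3 by more than 1 log2 unit in 1127 genes, and replicate 3 exceeded replicate 2 by as much in 101. In a principal component analysis of the 6 irr libraries the first component held 49.3% of the variance. It set irr Pep1 replicate 2, with a loading of 0.72, against irr water replicate 2, with -0.56, and did not separate the treatments. The second component, with 18.0%, held irr Pep1 replicates 1 and 3 at 0.52 and 0.53 and irr water replicates 1 and 3 at -0.36 and -0.51. The libraries numbered 2 had the reverse order, with irr Pep1 at -0.23 and irr water at 0.06.

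The 12 genes with the widest spread among the irr Pep1 libraries included peroxidases, lipid-transfer proteins, defensins and wall enzymes. The peroxidase gene AT1G14550 had 18.24, 85.2 and 3.15 FPKM in the irr Pep1 libraries, against 4.59, 0.475 and 4.95 FPKM in the irr water libraries. The peroxidase PER4 had 59.2, 163 and 11.9 FPKM in irr Pep1, against 32.3, 7.46 and 34.4 FPKM in irr water. Replicate 2 was the highest irr Pep1 library and the lowest irr water library for both. Neither gene passed the test (adjusted p = 0.165 for AT1G14550 and 0.465 for PER4).

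The lipid-transfer protein gene AT4G12490 had 20.1, 357 and 95.7 FPKM in irr Pep1, against 492, 75.5 and 336 FPKM in irr water. XTH18, a cell wall xyloglucan enzyme, had 21.3, 173 and 11.3 FPKM in irr Pep1, against 22.5, 20.6 and 62.1 FPKM in irr water. BIP3, a chaperone of the endoplasmic reticulum, had 5.85, 37.6 and 1.47 FPKM in irr Pep1, against 0.930, 0.940 and 4.39 FPKM in irr water. For these genes the treated and the water libraries overlapped and irr Pep1 replicate 2 was far above the other irr Pep1 libraries.

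FRK1, a receptor kinase gene widely used as a reporter of pattern-triggered immunity and picked here after its values were seen, showed the same order. It had 13.6, 131 and 17.0 FPKM in irr Pep1, against 44.0, 7.67 and 43.6 FPKM in irr water. Its fold change was 0.33 ± 0.77 (adjusted p = 0.857). In wild type it had 2.84, 2.85 and 3.34 FPKM with Pep1 and 1.55, 2.60 and 1.05 FPKM with water, below every irr library.

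With this spread, limma called 374 genes in irr, 2.13% of those tested, of which 138 were higher with Pep1 (0.788%) and 236 lower (1.35%). A change of at least 1 log2 unit was found for 63 of the higher and 46 of the lower genes. When each group was given its own weight, 63 genes passed (0.36%), 29 higher (0.166%) and 34 lower (0.194%), and all 63 were among the 374. The weight was a common factor for all genes of a group. It was 0.64 in irr Pep1, 0.88 in irr water, 1.6 in wild-type Pep1 and 1.1 in wild-type water. It scaled a spread per gene that the groups still shared, so no gene had a spread of its own in each group. This fit is called a spread for each group below. In a limma fit of only the 6 irr libraries none passed, with a smallest adjusted p of 0.0528 and 2164 genes at an unadjusted p under 0.05. For named genes whose call was lost with a spread for each group, that adjusted p is given as the group-spread value.

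Single libraries moved the count. It was 22 without irr Pep1 replicate 1, 13 without replicate 2 and 1387 without replicate 3. It was 197 without irr water replicate 1, 1 without replicate 2 and 286 without replicate 3. Leaving out a wild-type library changes only the shared spread. It gave 209, 277 and 264 without wild-type water replicates 1, 2 and 3, and 150, 175 and 204 without wild-type Pep1 replicates 1, 2 and 3. Of the 48 genes named here that passed, 8 still passed without irr Pep1 replicate 1, 4 without replicate 2 and 48 without replicate 3, and AT3G05730 alone still passed without irr water replicate 2. No fold change of these 48 turned its sign under any of these fits.

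The genes that rose and those that fell were spread differently over the irr Pep1 libraries. Among the 138, the median level above the irr water mean was 1.04 in irr Pep1 replicate 1, 1.1 in replicate 2 and 0.69 in replicate 3, in log2 units. Replicate 3 was the lowest of the irr Pep1 libraries in 99 of them, and in 5569 of the 8731 genes with a positive fold change. Among the 236, the medians were -0.63, -0.73 and -0.60. The median SD over the irr Pep1 libraries was 0.29 for the genes that rose and 0.14 for those that fell. These genes were chosen by the test, so their spread is a description. Without any test, all 3 irr Pep1 values lay above all 3 irr water values in 1207 genes (6.89%) and below them in 1898 (10.8%). All 138 and all 236 called genes were among these. For a called gene, groups without overlap are thus a description and no further support.

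The antimicrobial proteins held the largest rise. Of 14 genes on this list 10 passed the filter on low values, and 3 of these rose (0.788% of all genes tested did) and none fell, with a median fold change of 1.62 against -0.000683 over all genes tested. PDF1.2B, a defensin that permeabilises fungal cells, had 561, 171 and 63.3 FPKM in irr Pep1, against 0.297, 3.35 and 7.04 FPKM in irr water. Every irr Pep1 library was above every irr water library, although the treated libraries spanned a wide range. The fold change was 5.69 ± 0.71 (adjusted p = 0.00977).

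PDF1.2A had 218, 68.2 and 15.3 FPKM in irr Pep1, against 0, 3.67 and 11.6 FPKM in irr water, and rose by 4.01 ± 0.92 (adjusted p = 0.0484, group-spread value 0.0897). PR4, a chitin-binding protein, had 628, 523 and 279 FPKM in irr Pep1, against 232, 111 and 170 FPKM in irr water, and rose by 1.46 ± 0.30 (adjusted p = 0.0361, group-spread value 0.0703). The groups did not overlap for either gene, and replicate 3 with Pep1 came nearest to water in both. The basic chitinase HCHIB had 43.0, 57.0 and 19.9 FPKM in irr Pep1, against 13.4, 7.21 and 10.3 FPKM in irr water, without overlap, and just missed the threshold (1.77 ± 0.41, adjusted p = 0.0518).

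PDF1.2C and PDF1.3 were not called, at 2.71 ± 0.93 and 2.75 ± 1.04 (adjusted p = 0.155 and 0.192). The PDF1.2 and PDF1.3 genes are near-identical copies, so how reads were divided among them is uncertain. The trypsin inhibitor TI1 had 57.9, 148 and 58.2 FPKM in irr Pep1, against 149, 56.2 and 101 FPKM in irr water. PR1 was at 0 in all 3 irr Pep1 libraries and in 2 of the irr water libraries.

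ORA59, the AP2/ERF transcription factor through which ethylene and jasmonate act on PDF1.2, rose too. It had 30.6, 34.4 and 20.1 FPKM in irr Pep1, against 6.38, 7.84 and 10.5 FPKM in irr water. The groups were well apart, at 1.66 ± 0.22 (adjusted p = 0.0146). It was the only called gene of the 15 for ethylene synthesis and signalling, all of which passed the filter (0.788% of all genes tested rose). The list median was 0.24, or 0.05 without irr Pep1 replicate 2. ERF1B had 2.43, 5.87 and 0.518 FPKM in irr Pep1, against 1.86, 0.860 and 2.25 FPKM in irr water, with overlap. The synthesis enzyme ACS6 had 20.4, 30.4 and 4.95 FPKM in irr Pep1, against 6.27, 3.64 and 6.34 FPKM in irr water, where replicate 3 with Pep1 lay among the water libraries (adjusted p = 0.174).

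Genes for camalexin and other indole defence compounds had members that rose and none that fell. Of 19 genes 18 passed the filter, and 5 rose (0.788% of all genes tested did), with a median fold change of 1.17. PAD3, among these 5, was under 1 FPKM in every irr water library. It passed the filter only through irr Pep1, so the count is no support for the list. The pathway turns tryptophan into indole-3-acetaldoxime through CYP79B2 and CYP79B3, from which camalexin, indole glucosinolates and cyanogenic indoles branch off.

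CYP79B3 had 29.0, 53.4 and 21.3 FPKM in irr Pep1, against 13.7, 5.10 and 10.1 FPKM in irr water, and rose by 1.73 ± 0.35 (adjusted p = 0.0361, group-spread value 0.0732). PAD3, which makes camalexin in the last step of its pathway, had 14.0, 13.3 and 3.16 FPKM in irr Pep1, against 0.760, 0.221 and 0.384 FPKM in irr water. Replicates 1 and 2 with Pep1 were alike and replicate 3 was lower, yet all were above water, at 2.74 ± 0.39 (adjusted p = 0.0163).

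CYP82C2, of the cyanogenic branch, had 174, 332 and 34.1 FPKM in irr Pep1, against 18.9, 1.55 and 9.28 FPKM in irr water, and rose by 3.98 ± 0.80 (adjusted p = 0.0337, group-spread value 0.0657). MYB122, a regulator of indole glucosinolate genes, had 10.3, 13.5 and 4.82 FPKM in irr Pep1, against 1.69, 0.167 and 1.26 FPKM in irr water, and rose by 2.36 ± 0.34 (adjusted p = 0.0163). IGMT1, a methyltransferase of indole glucosinolates, had 207, 267 and 107 FPKM in irr Pep1, against 85.0, 53.0 and 72.8 FPKM in irr water, and rose by 1.38 ± 0.32 (adjusted p = 0.0493, group-spread value 0.0947). In these 3 genes replicate 2 with Pep1 was the highest library and replicate 2 with water the lowest.

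Other members had the same order of libraries without passing. CYP79B2 had 96.6, 270 and 43.1 FPKM in irr Pep1, against 31.4, 5.39 and 35.4 FPKM in irr water, without overlap (2.42 ± 0.66, adjusted p = 0.0828). CYP71A12 had 156, 298 and 49.8 FPKM in irr Pep1, against 43.8, 8.93 and 36.2 FPKM in irr water, also without overlap (2.39 ± 0.64, adjusted p = 0.0779). CYP83B1, at the entry to indole glucosinolates, had 187, 586 and 136 FPKM in irr Pep1, against 196, 45.5 and 220 FPKM in irr water, and the groups overlapped.

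Irr Pep1 replicate 2 was the highest treated library in 16 of the 18 measured members and replicate 3 the lowest in 17. Of all 17518 genes tested, replicate 2 was the highest in 7305 and replicate 3 the lowest in 9328. The mean level of the list was 6.03, 6.81 and 4.95 log2 units in irr Pep1, against 4.89, 3.6 and 4.78 in irr water. The water library numbered 2 was thus low, and the part of single libraries in the rise of the list was not tested. The 7 genes for tryptophan synthesis were not called either, with 4 at an unadjusted p under 0.05 (3207 of all 17518 genes tested). TSB1, a tryptophan synthase subunit, had 247, 469 and 122 FPKM in irr Pep1, against 134, 68.0 and 152 FPKM in irr water (1.11 ± 0.40, adjusted p = 0.174), and the list median was 1.11, or 0.57 without irr Pep1 replicate 2. The median of the camalexin and indole list was 0.76 without that library and 0.75 without irr water replicate 2.

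**Figure D2:**
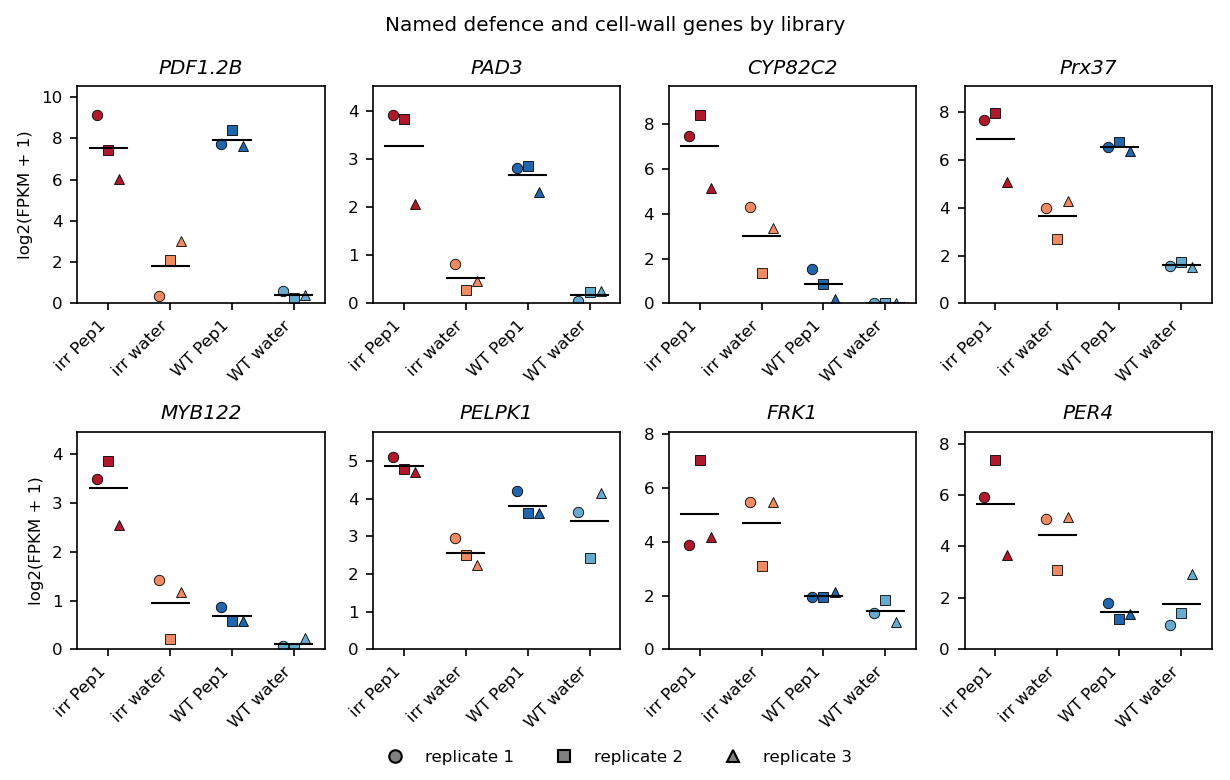
Levels of 8 genes as log2(FPKM + 1) (vertical axes) in each library, grouped on the horizontal axes by genotype and treatment; symbols mark replicates and bars the mean of 3. PDF1.2B, PAD3, CYP82C2, Prx37, MYB122 and PELPK1 have every irr Pep1 library above every irr water library, while in FRK1 and PER4 only irr Pep1 replicate 2 stands clear of both other irr Pep1 libraries and irr water replicate 2 is the lowest water library.

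Class III peroxidases, which use hydrogen peroxide to cross-link or loosen the cell wall, moved in both directions. Of 71 genes 47 passed the filter on low values, 5 rose and 1 fell, with a median of 0.46. Of all genes tested 0.788% rose and 1.35% fell. The member that fell was under 1 FPKM in every irr Pep1 library and passed the filter only through irr water. Prx37 had 200, 242 and 32.1 FPKM in irr Pep1, against 14.7, 5.39 and 18.16 FPKM in irr water, and rose by 3.24 ± 0.61 (adjusted p = 0.0274). AT4G11290 had 46.0, 56.4 and 12.5 FPKM in irr Pep1, against 3.75, 4.38 and 5.2 FPKM in irr water, and rose by 2.61 ± 0.43 (adjusted p = 0.0172). Replicate 3 with Pep1 was the lowest treated library in both and still above water.

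PRXR1 had 486, 410 and 381 FPKM in irr Pep1, against 233, 290 and 217 FPKM in irr water, and rose by 0.79 ± 0.16 (adjusted p = 0.0337, group-spread value 0.0854). AT4G33420 rose by 0.78 ± 0.14 (adjusted p = 0.0217, group-spread value 0.0519), and AT1G68850 by 0.96 ± 0.21 (adjusted p = 0.0425, group-spread value 0.124). The member that fell, AT1G30870, had 0.0898, 0.319 and 0.402 FPKM in irr Pep1, against 4.18, 2.49 and 1.93 FPKM in irr water (-1.57 ± 0.35, adjusted p = 0.0455, group-spread value 0.138).

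Further genes among the 15 with the largest rises included DIR5, a dirigent protein that steers the coupling of phenolic radicals. It had 126, 133 and 29.4 FPKM in irr Pep1, against 11.6, 5.64 and 19.2 FPKM in irr water, and rose by 2.75 ± 0.54 (adjusted p = 0.0302, group-spread value 0.0553). DIN11, an oxygenase, had 200, 194 and 39.7 FPKM in irr Pep1, against 15.7, 17.9 and 35.0 FPKM in irr water, and rose by 2.38 ± 0.50 (adjusted p = 0.0382, group-spread value 0.0655). In both, replicate 3 with Pep1 was close to the highest water library. PELPK1, a hydroxyproline-rich cell wall protein, had 33.3, 26.6 and 25.2 FPKM in irr Pep1, against 6.70, 4.63 and 3.71 FPKM in irr water. Its treated libraries lay close together, and it rose by 2.31 ± 0.36 (adjusted p = 0.0163).

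AT3G48450, of the family of the immune regulator RIN4, rose by 2.42 ± 0.48 (adjusted p = 0.0322, group-spread value 0.0537). The copper transport family gene AT5G52720 rose by 2.23 ± 0.50 (adjusted p = 0.0431, group-spread value 0.0756). Uncharacterised genes among these 15 were AT1G06137, AT4G28460 and AT1G65500, with fold changes of 2.25 ± 0.44, 2.23 ± 0.44 and 2.15 ± 0.38 (adjusted p = 0.0310, 0.0316 and 0.0226). Each lost its call with a spread for each group.

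EXLB1, an expansin-like protein, had 41.4, 57.0 and 21.0 FPKM in irr Pep1, against 7.41, 10.1 and 11.4 FPKM in irr water, and rose by 1.85 ± 0.33 (adjusted p = 0.0241, group-spread value 0.0537). HAI1, a phosphatase that damps abscisic acid signalling, had 1.64, 2.18 and 2.03 FPKM in irr Pep1, against 0.299, 0.225 and 0.423 FPKM in irr water, and rose by 1.16 ± 0.17 (adjusted p = 0.0163). Its groups were narrow and far apart. It was the only called gene among 13 measured of 16 for abscisic acid, whose median was 0.18 (0.788% of all genes tested rose). HAI1 was under 1 FPKM in every irr water library and passed the filter only through irr Pep1. NCED3, which makes a precursor of abscisic acid, had 1.32, 1.15 and 2.15 FPKM in irr Pep1, against 0.423, 0.298 and 0.689 FPKM in irr water, without overlap (0.78 ± 0.25, adjusted p = 0.130).

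Several further genes passed also with a spread for each group, and were picked for this after their values were seen. Like every called gene, they had no overlap between their groups. MPL1, a lipase induced by aphids, had 74.7, 86.1 and 80.9 FPKM in irr Pep1, against 50.7, 35.1 and 48.0 FPKM in irr water (0.85 ± 0.14, adjusted p = 0.0168). The DnaJ-domain gene AT3G13310 had 81.5, 67.2 and 84.2 FPKM in irr Pep1, against 44.9, 46.7 and 51.3 FPKM in irr water (0.69 ± 0.11, adjusted p = 0.0163). The flavin monooxygenase FMO, at AT1G12200, had 25.0, 28.7 and 14.3 FPKM in irr Pep1, against 6.21, 5.10 and 5.50 FPKM in irr water (1.79 ± 0.22, adjusted p = 0.00977). ERF4, an ethylene-responsive repressor, had 66.9, 73.6 and 44.7 FPKM in irr Pep1, against 30.8, 27.9 and 30.5 FPKM in irr water (1.00 ± 0.16, adjusted p = 0.0168). The treated libraries of MPL1 and AT3G13310 lay close together, while replicate 3 was the lowest of those of FMO and ERF4.

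Of the 8 Pep precursor and receptor genes 6 passed the filter and none was called by limma. An unadjusted p under 0.05 was found for 2 of them, against 3207 of all 17518 genes tested. The list median was 0.59, and became 0.14 without irr Pep1 replicate 2 and 0.99 without its replicate 3. PROPEP1, the precursor of Pep1, had 3.99, 6.89 and 1.39 FPKM in irr Pep1, against 1.42, 1.33 and 1.17 FPKM in irr water (0.98 ± 0.33, adjusted p = 0.147). PROPEP3 had 20.6, 69.0 and 8.19 FPKM in irr Pep1, against 8.80, 1.8 and 15.4 FPKM in irr water (1.65 ± 0.70, adjusted p = 0.237). Replicates 1 and 2 with Pep1 were above water and replicate 3 overlapped it in both. PEPR1 had 9.78, 13.2 and 6.77 FPKM in irr Pep1, against 8.31, 6.41 and 8.04 FPKM in irr water (0.31 ± 0.18, adjusted p = 0.404). PEPR2 stayed at 0.229 to 0.625 FPKM in irr Pep1 and 0.177 to 0.410 FPKM in irr water, and did not pass the filter.

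Among 30 genes for pattern perception and the kinase relay, all measured, PUB25 was called, while 0.788% of all genes tested rose. The list median was 0.28, and 0.04 without irr Pep1 replicate 2. PUB25, a ubiquitin ligase known to mark the kinase BIK1 for degradation, had 11.0, 9.95 and 10.0 FPKM in irr Pep1, against 6.67, 7.10 and 6.62 FPKM in irr water, and rose by 0.54 ± 0.09 (adjusted p = 0.0179, group-spread value 0.0568). RBOHD, the oxidase of the immune oxidative burst, had 31.6, 43.6 and 11.4 FPKM in irr Pep1, against 13.7, 8.59 and 13.0 FPKM in irr water (1.07 ± 0.35, adjusted p = 0.141). BIK1 had 29.7, 49.1 and 27.4 FPKM in irr Pep1, against 33.2, 18.1 and 30.5 FPKM in irr water, with overlap. Irr Pep1 replicate 2 was the highest treated library for 28 of the 30 genes, and for 7305 of all 17518 genes tested.

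None of the 12 pattern-induced markers was called by limma (median 0.40). An unadjusted p under 0.05 was found for 2, against 3207 of all 17518 genes tested. NHL10 came nearest, with 26.0, 18.8 and 3.75 FPKM in irr Pep1, against 1.84, 1.14 and 2.78 FPKM in irr water, without overlap (2.26 ± 0.56, adjusted p = 0.0621). WRKY33 had 76.3, 107 and 32.1 FPKM in irr Pep1, against 39.3, 26.0 and 57.6 FPKM in irr water (adjusted p = 0.369). The median of this list became -0.02 without irr Pep1 replicate 2, so its sign rested on that library, and 0.84 without replicate 3.

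None was called by limma among 50 measured WRKY transcription factors (median 0.12), 18 jasmonate genes (0.38), 12 salicylic acid and systemic resistance genes (0.38) or 16 phenylpropanoid and monolignol enzymes (0.48). An unadjusted p under 0.05 was found for 7 of the WRKY genes, 4 of the jasmonate genes, 2 of the salicylic acid genes and 3 of the phenylpropanoid genes. Of all 17518 genes tested 3207 had one, and the shares of these lists lay near that. The jasmonate repressor JAZ1 had 36.0, 86.6 and 17.5 FPKM in irr Pep1, against 27.0, 16.6 and 33.2 FPKM in irr water. ICS1, the main salicylic acid synthesis enzyme, had 12, 19.0 and 7.52 FPKM in irr Pep1, against 9.05, 6.66 and 15.9 FPKM in irr water. PAL1, at the entry to phenylpropanoids, had 113, 330 and 60.6 FPKM in irr Pep1, against 128, 43.6 and 128 FPKM in irr water. In these genes irr Pep1 replicate 2 was highest, irr Pep1 replicate 3 was lowest of the treated libraries, and the groups overlapped. Without irr Pep1 replicate 2 the median was -0.01 for the WRKY list, 0.04 for jasmonate, 0.22 for salicylic acid and 0.13 for phenylpropanoids. Without irr Pep1 replicate 3 it was 0.24 for the WRKY list, 0.66 for jasmonate, 0.63 for salicylic acid and 0.80 for phenylpropanoids.

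Glutathione transferases, which conjugate and detoxify reactive compounds, had a median of 0.88 over 9 measured members and no call. An unadjusted p under 0.05 was found for 5 of them, against 3207 of all 17518 genes tested. The median was 0.57 without irr Pep1 replicate 2 and 0.45 without irr water replicate 2. GSTF2 had 2123, 2201 and 793 FPKM in irr Pep1, against 1145, 459 and 1122 FPKM in irr water (0.88 ± 0.40, adjusted p = 0.272). The 4 measured heat-shock genes had a median of 0.77 and no call, with 3 at an unadjusted p under 0.05 beside the same share of all genes. HSP70 had 27.6, 43.1 and 16.5 FPKM in irr Pep1, against 9.03, 7.18 and 20.3 FPKM in irr water. Of 8 measured low-oxygen genes LBD41 was called, while 0.788% of all genes tested rose. LBD41 had 10.2, 11.8 and 10.9 FPKM in irr Pep1, against 6.33, 6.65 and 6.17 FPKM in irr water (0.69 ± 0.12, adjusted p = 0.0217, group-spread value 0.0657). The low-oxygen list can also mark handling of submerged seedlings, and its part in other results was not tested.

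**Figure D3:**
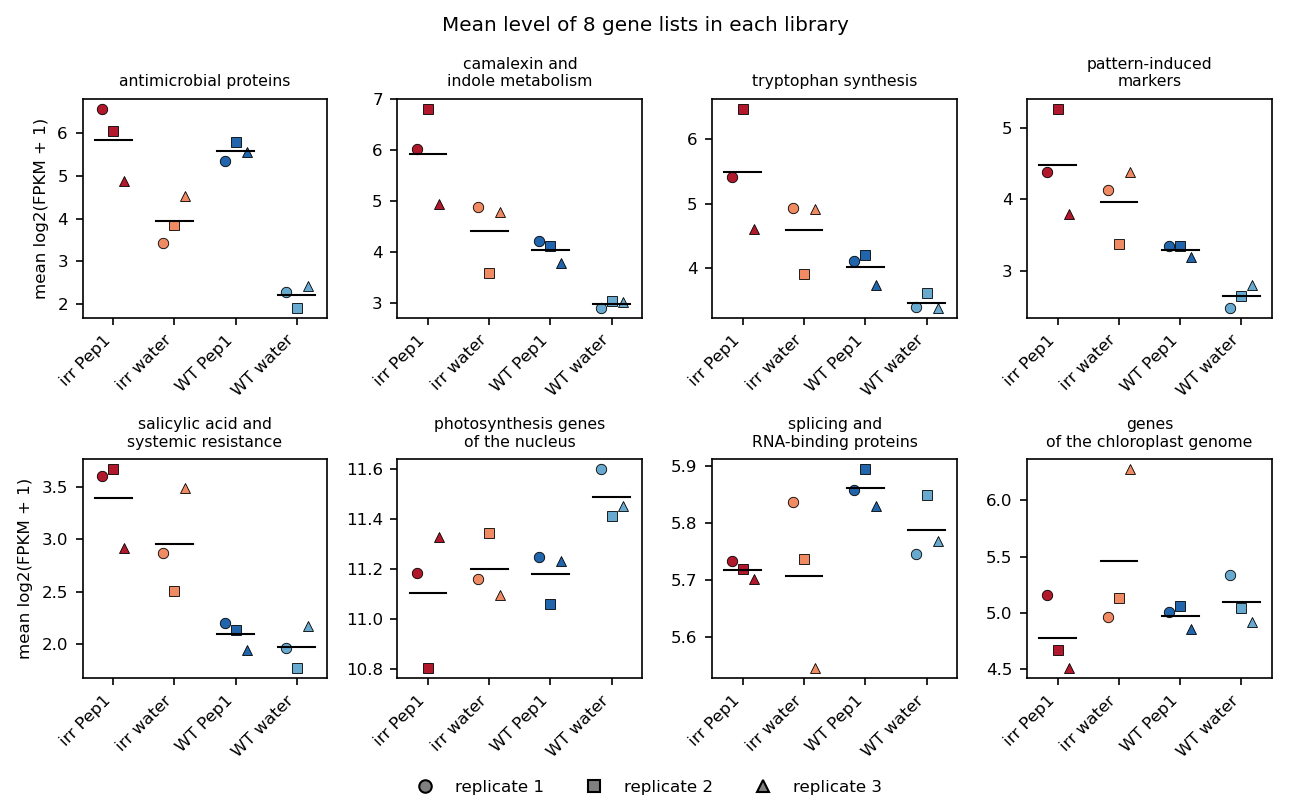
Mean log2(FPKM + 1) of the members of 8 gene lists that passed the filter (vertical axes, each with its own range) in every library, grouped on the horizontal axes by genotype and treatment; symbols mark replicates and bars the mean of 3. For camalexin and indole metabolism irr Pep1 lies at 6.03, 6.81 and 4.95 against 4.89, 3.6 and 4.78 in irr water, and for the chloroplast genome irr water replicate 3 stands alone at 6.28.

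Of 15 root hair genes 5 passed the filter, and 2 of them, RHS13 and EXPA7, fell. These 2 genes and PRP3 were under 1 FPKM in every irr Pep1 library and passed the filter only through irr water, so their share is not set against the 1.35% of all genes that fell. RHS13 had 0.0743, 0 and 0.0739 FPKM in irr Pep1, against 4.19, 2.82 and 2.70 FPKM in irr water. The treated libraries lay near what a single read is worth in a gene of 1 kb. The difference was -2.0 ± 0.32 on the log2(FPKM + 1) scale (adjusted p = 0.0168, group-spread value 0.0657). EXPA7, a root hair expansin that loosens the wall, had 0.161, 0.601 and 0.696 FPKM in irr Pep1, against 6.11, 3.51 and 3.46 FPKM in irr water (-1.83 ± 0.36, adjusted p = 0.0302, group-spread value 0.105). PRP3, a proline-rich wall protein of root hairs, had 0, 0.0962 and 0.283 FPKM in irr Pep1, against 2.36, 1.88 and 1.57 FPKM in irr water (-1.38 ± 0.34, adjusted p = 0.0594).

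Summed over all 15 root hair genes, those under the filter included, the level was 11.6, 17.1 and 13.1 FPKM in irr Pep1, against 33.7, 25.3 and 22.3 FPKM in irr water. The groups did not overlap. Both measured members that were not lower, CSLD3 and RHS10, had fold changes of 0.23 ± 0.16 and 0.17 ± 0.24. For the broader root markers, of 14 genes 7 passed the filter and none was called, 1 at an unadjusted p under 0.05 (median -0.02). Their sum was 437, 426 and 517 FPKM in irr Pep1, against 472, 641 and 362 FPKM in irr water, with overlap. PYK10 had 363, 345 and 441 FPKM in irr Pep1, against 396, 553 and 291 FPKM in irr water (adjusted p = 0.905).

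Extensins are rod-like glycoproteins that knit the cell wall. Of 56 extensin and extensin-like genes 30 passed, 1 rose and 5 fell (0.788% and 1.35% of all genes tested), and 13 had all irr Pep1 values below all irr water values (10.8% of all genes did), with a median of -0.39. The sum over all 56 was 3780, 7275 and 4287 FPKM in irr Pep1, against 6889, 4198 and 6499 FPKM in irr water, with irr Pep1 replicate 2 the highest library and the groups overlapping. AT3G54580 had 0.665, 1.39 and 1.98 FPKM in irr Pep1, against 7.69, 8.31 and 5.53 FPKM in irr water (-1.83 ± 0.37, adjusted p = 0.0351, group-spread value 0.0947). AT3G28550 had 1.47, 2.38 and 1.17 FPKM in irr Pep1, against 8.18, 9.46 and 6.22 FPKM in irr water (-1.75 ± 0.39, adjusted p = 0.0428, group-spread value 0.122). AT3G09925 had 0.754, 0.766 and 0.321 FPKM in irr Pep1, against 4.26, 2.67 and 3.88 FPKM in irr water (-1.51 ± 0.31, adjusted p = 0.0361, group-spread value 0.0931). The groups of these 3 genes were well apart, and AT3G09925 passed the filter only through irr water.

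AT5G13140 and AT1G78040 fell by less, at -0.91 ± 0.21 and -0.49 ± 0.10 (adjusted p = 0.0479 and 0.0382), and both lost their call with a spread for each group. The member that rose, AT2G40113, had 12.9, 12.4 and 3.72 FPKM in irr Pep1, against 1.8, 2.53 and 2.79 FPKM in irr water (1.52 ± 0.35, adjusted p = 0.0480, group-spread value 0.0854).

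AT3G05730, annotated as a defensin-like protein, had 132, 130 and 145 FPKM in irr Pep1, against 379, 350 and 421 FPKM in irr water. Both groups were narrow and far apart, at -1.49 ± 0.16 (adjusted p = 0.00977), and in the fit of only the 6 irr libraries its adjusted p was 0.0528. GATA4, a zinc finger transcription factor, had 37.8, 42.0 and 50.5 FPKM in irr Pep1, against 79.1, 104 and 102 FPKM in irr water (-1.11 ± 0.13, adjusted p = 0.00977). BCCP2, a subunit of the acetyl-CoA carboxylase that starts fatty acid synthesis in plastids, had 10.7, 12.5 and 10.5 FPKM in irr Pep1, against 20.8, 21.4 and 19.7 FPKM in irr water (-0.83 ± 0.10, adjusted p = 0.00977). These genes passed with a spread for each group as well.

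The transporter SWEET11, which exports sucrose for phloem loading, had 46.8, 26.6 and 20.7 FPKM in irr Pep1, against 80.6, 85.1 and 108 FPKM in irr water (-1.58 ± 0.23, adjusted p = 0.0163). The amino acid permease AAP2 had 22.5, 12.2 and 32.1 FPKM in irr Pep1, against 57.6, 71.2 and 48.0 FPKM in irr water (-1.44 ± 0.31, adjusted p = 0.0397, group-spread value 0.0897). Neither gene's groups overlapped.

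GER3, a germin-like protein, had 14.1, 15.2 and 18.9 FPKM in irr Pep1, against 62.6, 43.6 and 70.4 FPKM in irr water (-1.79 ± 0.33, adjusted p = 0.0245, group-spread value 0.0924). PME5, a pectin methylesterase, had 2.72, 1.82 and 4.95 FPKM in irr Pep1, against 11.9, 14.0 and 6.67 FPKM in irr water (-1.52 ± 0.35, adjusted p = 0.0481, group-spread value 0.113). UDG4, which supplies sugar acids for wall polymers, fell by 1.29 ± 0.23 on the log2 scale (adjusted p = 0.0226, group-spread value 0.0696). PME5 lost its call when library medians were made equal.

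MLP28, a major latex protein-like gene, had 16.7, 11.9 and 18.9 FPKM in irr Pep1, against 44.9, 86.3 and 45.4 FPKM in irr water (-1.78 ± 0.28, adjusted p = 0.0163). It was the only call among 7 measured MLP genes (median -0.57, and -0.14 without irr water replicate 2), as GER3 was among 10 measured germin-like genes (median 0.23). For these lists, 1.35% of all genes tested fell. BGLU18, a beta-glucosidase of endoplasmic reticulum bodies, had 3.43, 2.86 and 1.39 FPKM in irr Pep1, against 7.64, 9.64 and 14.0 FPKM in irr water (-1.69 ± 0.29, adjusted p = 0.0189). EPF2, a peptide that limits stomatal lineage cells, had 0.823, 0.928 and 1.27 FPKM in irr Pep1, against 2.75, 2.79 and 3.17 FPKM in irr water (-0.96 ± 0.17, adjusted p = 0.0242, group-spread value 0.0764). The groups did not overlap in any of them. EPF2 was the only call among 7 measured shoot epidermis markers (median -0.40), beside the same 1.35% of all genes.

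SBP3, a selenium-binding protein, fell by 1.28 ± 0.23 on the log2 scale (adjusted p = 0.0229, group-spread value 0.0657). The uncharacterised AT5G01015 had 2.77, 1.47 and 2.1 FPKM in irr Pep1, against 9.86, 11.7 and 5.93 FPKM in irr water (-1.68 ± 0.27, adjusted p = 0.0168). AT2G27402, annotated as a plastid transcriptionally active protein, had 7.70, 1.82 and 3.23 FPKM in irr Pep1, against 9.62, 18.19 and 12.6 FPKM in irr water (-1.58 ± 0.35, adjusted p = 0.0447, group-spread value 0.0854). Irr Pep1 replicate 1 came close to the water libraries for this gene.

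**Figure D4:**
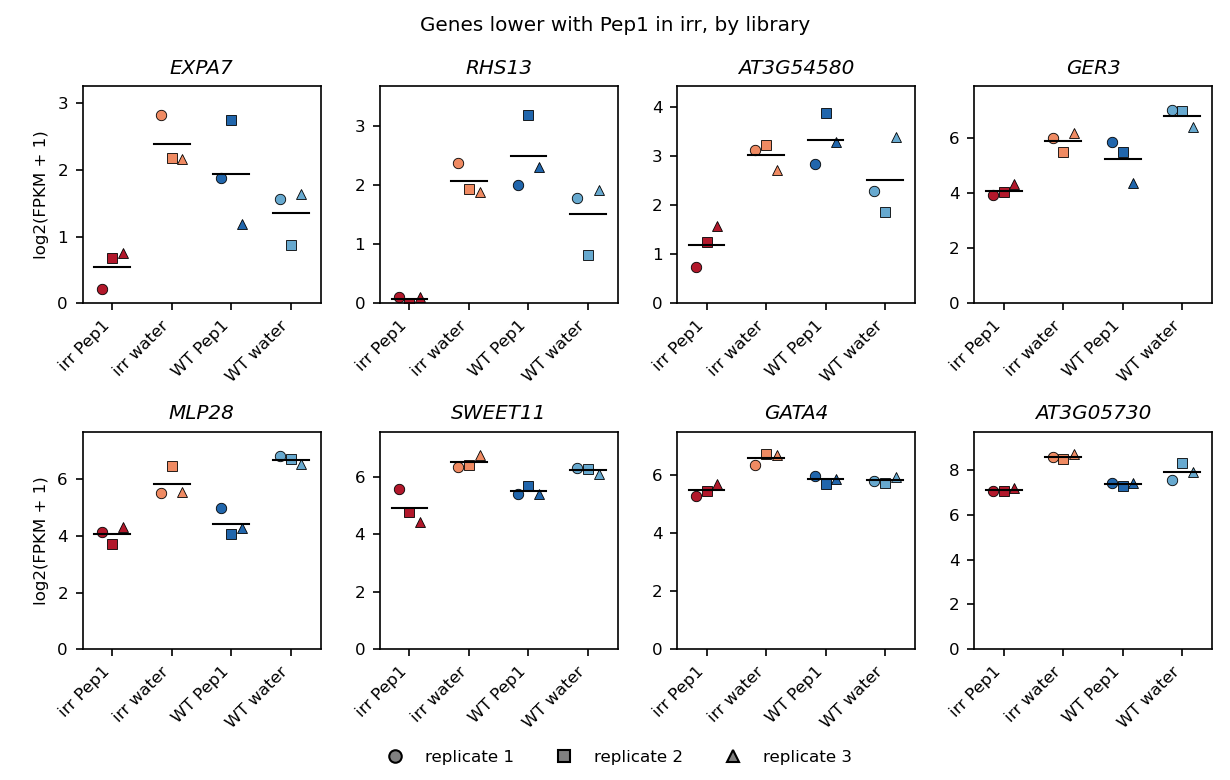
Levels of 8 genes as log2(FPKM + 1) (vertical axes from 0) in each library, grouped on the horizontal axes by genotype and treatment; symbols mark replicates and bars the mean of 3. In every panel the irr Pep1 libraries lie below the irr water libraries. In all panels but those of MLP28 and SWEET11 they also lie below the wild-type Pep1 libraries, though only just for GER3 and GATA4.

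Transcripts of the chloroplast genome fell in part with Pep1 in irr, and a water library stood apart. Of 133 genes 93 passed the filter, 6 fell (1.35% of all genes tested did) and none rose, with a median of -0.68 that became -0.28 without irr water replicate 3. None of the 6 stayed called with a spread for each group. ATCG00810 had 173, 150 and 127 FPKM in irr Pep1, against 255, 272 and 475 FPKM in irr water (-1.10 ± 0.21, adjusted p = 0.0272, group-spread value 0.0657). Chloroplast transcripts made up 4.75%, 3.53% and 2.89% of the FPKM sum in irr Pep1, against 4.02%, 4.67% and 11.1% in irr water. Irr water replicate 3, which is also the most deeply sequenced library, alone stood high, and its part in these calls was not tested. Nuclear photosynthesis genes had no call among 40, all measured, with a median of -0.08. An unadjusted p under 0.05 was found for 4, against 3207 of all 17518 genes tested.

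The remaining lists but expansins had no gene called by limma. They had 0 to 3 members each with an unadjusted p under 0.05, against 3207 of all 17518 genes tested. These were splicing and RNA-binding proteins (18 measured, median -0.02), the circadian clock (12, -0.09), cell division (10, -0.17), auxin response (7, 0.25), senescence (6, 0.09), phosphate starvation (4, 0.26), aliphatic glucosinolates (7, -0.04) and the mitochondrial genome (27, -0.01). Of 14 measured expansins EXLB1 rose and EXPA7 fell (0.788% and 1.35% of all genes tested), with a median of -0.10. EXPA7 passed the filter only through irr water. The RNA-binding protein GRP8, a regulator of splicing under the clock, had 383, 353 and 410 FPKM in irr Pep1, against 329, 286 and 288 FPKM in irr water, without overlap (0.34 ± 0.10, adjusted p = 0.105).

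The same fit gave the Pep1 response of wild type, for the same 17518 genes, to set beside that of irr. It called 610 genes (3.48%), 377 higher (2.15%) and 233 lower (1.33%). Of the 138 genes that rose in irr 69 also rose in wild type, which is 50% of the irr set and 18.3% of the wild-type set. Of the 236 that fell in irr 79 also fell in wild type, 33.5% of the irr set and 33.9% of the wild-type set. The sign was the same in wild type for 132 of the 138 and 214 of the 236. Over all genes tested, it was the same for 6681 of the 8731 with a positive fold change in irr. For those with a negative one it was the same in 5363 of 8787. Wild-type calls depend on the shared spread too: they numbered 1832 with a spread for each group.

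The 377 genes that rose in wild type had a median fold change of 0.34 in irr and 0.73 in wild type. In irr 337 of them were positive, as were 8731 of all 17518 genes tested. Their mean level was 5.2, 5.29 and 4.96 log2 units in irr Pep1, against 4.66, 4.54 and 4.72 in irr water. In wild type it was 5.15, 5.24 and 5.11 with Pep1 and 4.14, 4.1 and 4.21 with water. The irr and wild-type libraries with Pep1 thus lay close together and the irr water libraries lay above the wild-type water libraries. The 233 genes that fell in wild type had a median of -0.49 in irr and -0.66 in wild type. In irr 222 of them were negative, as were 8787 of all 17518 genes tested. Both sets were chosen on the wild-type values, which fixes the wild-type medians and favours low wild-type water values among the 377. The order of the water libraries is therefore a description and no support for a difference between the genotypes. Such a difference was tested only by gene.

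PDF1.2B changed by 5.69 in irr and by 7.5 in wild type, where it had 213, 336 and 196 FPKM with Pep1 and 0.511, 0.210 and 0.308 FPKM with water. ORA59 changed by 1.66 in irr and 3.12 in wild type, where it had 33.1, 32.8 and 23.1 FPKM with Pep1 and 2.33, 2.1 and 3.13 FPKM with water. PR4 changed by 1.46 in irr and 2.88 in wild type, where it had 352, 408 and 299 FPKM with Pep1 and 46.8, 40.4 and 53.7 FPKM with water. For ORA59 and PR4 every irr water library was above every wild-type water library, and the Pep1 libraries of both genotypes overlapped.

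CYP82C2 and MYB122 had another layout. CYP82C2 had 1.94, 0.804 and 0.146 FPKM with Pep1 in wild type and was at 0 in all 3 wild-type water libraries, so its wild-type Pep1 libraries lay below all irr libraries except irr water replicate 2. MYB122 had 0.816, 0.497 and 0.50 FPKM with Pep1 in wild type and 0.0508, 0 and 0.184 FPKM with water. The irr response minus the wild-type response was 3.11 ± 1.13 for CYP82C2 (adjusted p = 0.638) and 1.78 ± 0.48 for MYB122 (adjusted p = 0.496).

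No gene passed the test of a difference between the responses of irr and wild type, with limma's interaction contrast (0% of those tested), while 1169 had an unadjusted p under 0.05 and the smallest adjusted p was 0.221. Leaving out wild-type water replicate 3 gave 1 call, AT2G47540, and leaving out irr Pep1 replicate 3 gave 7.

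RHS13 had an interaction of -2.98 ± 0.45 (unadjusted p = 2.86e-05, adjusted p = 0.221). In wild type it had 3.0, 8.03 and 3.91 FPKM with Pep1 and 2.43, 0.768 and 2.76 FPKM with water, all far above the irr Pep1 libraries. GATA4 had -1.14 ± 0.18 (unadjusted p = 5.31e-05, adjusted p = 0.221), with 60.9, 50.8 and 57.2 FPKM with Pep1 and 54.4, 52.0 and 58.9 FPKM with water in wild type. Its wild-type groups overlapped and lay between the irr groups. BCCP2 had -0.81 ± 0.14 (unadjusted p = 8.89e-05, adjusted p = 0.221), with 11.4, 12.9 and 11.1 FPKM with Pep1 and 11.3, 12.9 and 11.7 FPKM with water in wild type. Its level in irr with Pep1 was that of wild type, and irr with water was above.

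AT4G24130, of a family of unknown function, had 10.5, 12.5 and 12.1 FPKM in irr Pep1, against 5.74, 5.01 and 5.98 FPKM in irr water. In wild type it had 6.60, 6.72 and 5.72 FPKM with Pep1 and 7.63, 6.87 and 10.4 FPKM with water. The order of the treatments was opposite in the genotypes, with an interaction of 1.27 ± 0.20 (unadjusted p = 3.39e-05, adjusted p = 0.221). AT3G05950, a cupin family gene, had 9.92, 7.66 and 7.64 FPKM in irr Pep1, against 6.24, 10.1 and 5.94 FPKM in irr water. In wild type it had 5.0, 6.68 and 11.2 FPKM with Pep1 and 0.791, 0.216 and 0.848 FPKM with water, and the interaction was -2.19 ± 0.38 (adjusted p = 0.221). RUP1, a repressor of UV-B signalling, had -0.72 ± 0.12, AT3G23880, an F-box gene, -0.72 ± 0.12, AT1G68500 -1.0 ± 0.17 and AT1G20823, a RING ligase family gene, 1.78 ± 0.32 (adjusted p = 0.221 for the first 3 and 0.248 for AT1G20823).

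Opposite orders of the libraries were rare. In 66 of the 17518 genes all 3 irr Pep1 values lay below irr water and all 3 wild-type Pep1 values above wild-type water. The reverse order was found in 18 genes. In wild type the treated libraries were all above water in 3702 genes (21.1%) and all below in 2205 (12.6%). In irr they were all below in 1898 genes (10.8%), 236 of them called, and all above in 1207 (6.89%), 138 of them called. Of the 66 genes 5 were called in irr, namely RHS13, AT1G42430, AT3G23880, BES1 and AT1G26665. BES1, a transcription factor of brassinosteroid signalling, had 37.4, 32.8 and 32.8 FPKM in irr Pep1, against 42.4, 53.4 and 44.9 FPKM in irr water, and in wild type 32.6, 31.9 and 32.1 FPKM with Pep1 and 27.9, 27.7 and 28.9 FPKM with water (irr fold change -0.43 ± 0.09, adjusted p = 0.04, group-spread value 0.0897). Of the 18 genes AT4G24130 and AT1G20823 were called in irr.

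Summed over all 15 root hair genes, the wild-type level was 22.5, 45.6 and 27.8 FPKM with Pep1 and 23.5, 12.5 and 28.5 FPKM with water, with overlap, and 5 of these 6 libraries were above every irr Pep1 sum. EXPA7 had 2.67, 5.71 and 1.28 FPKM with Pep1 and 1.96, 0.834 and 2.12 FPKM with water in wild type, with overlap, and an interaction of -2.41 ± 0.50 (adjusted p = 0.366). AT3G54580 had 6.13, 13.5 and 8.72 FPKM with Pep1 and 3.90, 2.62 and 9.38 FPKM with water in wild type, and an interaction of -2.64 ± 0.52 (adjusted p = 0.337). HAI1 had overlapping groups in wild type, with 0.545, 0.420 and 0.668 FPKM with Pep1 and 0.964, 0.352 and 0.672 FPKM with water, and had an interaction of 1.26 ± 0.24 (adjusted p = 0.308).

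**Figure D5:**
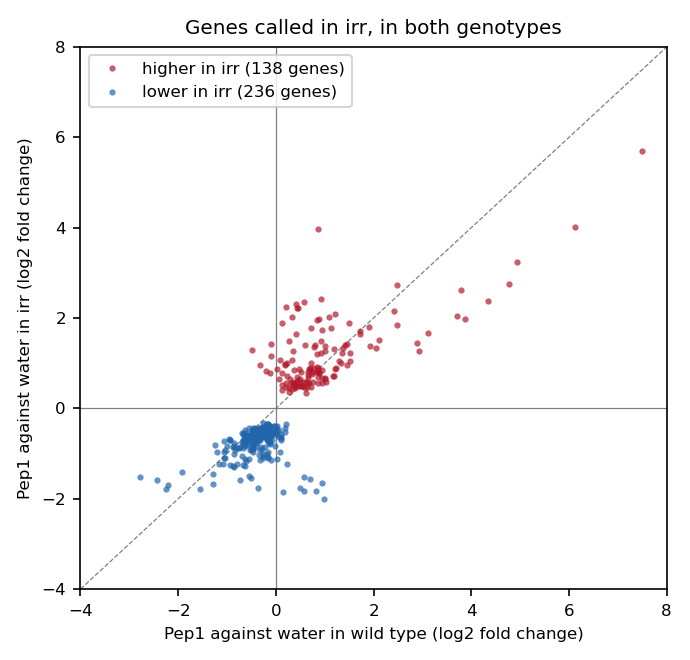
Fold change of Pep1 against water in irr (vertical axis, log2) plotted against that in wild type (horizontal axis, log2) for the 374 genes called in irr; red points are the 138 that rose, blue points the 236 that fell, and the dashed line marks equal changes. Of the red points 132 are positive in wild type too, with PDF1.2B at the far end, and of the blue points 214 are negative in wild type too, while RHS13, EXPA7 and AT3G54580 are among those with positive wild-type values.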

How the data were processed

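Per the labels' protocols, RNA of whole seedlings, cleared of DNA, went into paired-end libraries, with 20 M raw reads stated per sample. The authors deposited FPKM values in 1 table of 32846 genes, 6656 of them at 0 in every library, with 1 column per library; the aligner, counting tool, genome build, annotation and filters are not named in any source used here. TAIR10.1 from RefSeq gave gene names only (31912 identifiers matched). Depth came from the steps of low values: 946 of 1000 genes had a length at which all 12 values were whole reads within 0.1 read, against 2 of 1000 with the totals moved. The totals were 17.4 to 56.5 M, so the stated 20 M cannot be the same unit in every library.

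Values were taken as log2(FPKM + 1) and fitted with limma 3.58.1 in R 4.3.3, 1 mean per group, 12 libraries, 8 residual degrees of freedom, a mean-variance trend and Benjamini-Hochberg adjustment. The fit was tested on simulated data, in which the spread of a gene was shared by the groups or scaled by a common factor per group. Real genes were more uneven than that, so the simulation cannot show how far the calls hold here. The exact permutation test of 3 against 3 libraries cannot go below p = 0.1 and was not used.

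The members and the 33 gene lists were chosen with earlier results of these data known. Of the list entries 4 were dropped because symbol and locus disagreed in the reference. Named genes are AT3G23900, CPK28 and the Pep receptor and precursor genes, up to 15 rises and 15 falls that passed the test without overlap and averaged 2 FPKM or more, up to 3 called members of a list or 2 with the highest mean, 12 genes with the widest irr Pep1 spread and 8 with the smallest interaction p. Further list members are named with their values. Alternatives were other pseudocounts, filters and scalings, a replicate block, no trend, weights per library or group, only the irr libraries, and each library left out. A planned count of promoter motifs was not made, because no promoter table of the files' build was used.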

Additional observations from a re-analysis of the deposited data

How the results depend on the processing

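The count of 374 genes called in irr was 194 without an expression filter, 179 with the replicate number as a block, 239 without the mean-variance trend, 1064 with weights per library, 63 with weights per group, and 0 with only the 6 irr libraries, with or without the block. Leaving out each of the 12 libraries gave 1 to 1387. Fits of only the irr libraries without an irr Pep1 replicate, chosen after seeing the data, gave 0 without replicate 1, 0 without replicate 2 and 158 without replicate 3. Other pseudocounts, a mean of at least 5 FPKM, equal medians and quantile normalization stayed within 1.5 times. Whether the replicate numbers pair the libraries is not known. Same-numbered irr libraries deviated from their group means with correlations of -0.27, -0.54 and -0.33, and same-numbered wild-type libraries with 0.05, 0.04 and 0.12. No irr Pep1 library correlated best with its own number. Deviations from a mean of 3 libraries depend on each other, so these values cannot decide it. The interaction count of 0 was 1 (RHS13) with a pseudocount of 0.1, and 0 to 7 with a library left out. The median SD among irr Pep1 libraries was 0.12 with a pseudocount of 5. Wild-type calls, 610 in all, were 1999 with weights per library, 1832 with weights per group and 100 to 1013 with a library left out. No fold change of a called named gene was reversed, and 17 of 48 stayed called with weights per group. List medians changed sign in 15 of 264 refits, in 8 lists. The causes were not tested. Precision is limited by 3 libraries a group and the uneven spread among irr Pep1 libraries.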

Other observations

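Genes with ribosomal protein in their product name and no organelle named there, a group chosen after the called genes were seen, numbered 294 among those tested. Of these 30 fell with Pep1 in irr and none rose (1.35% of all genes tested fell and 0.788% rose). With weights per group 7 fell (0.194% of all genes did). All irr Pep1 values lay below all irr water values in 121 (10.8% of all genes). Their median fold change was -0.23 in irr and -0.28 in wild type, against -0.000683 and 0.05 over all genes tested. Against the irr water mean the group's median was -0.12, -0.19 and -0.41 log2 units in irr Pep1 replicates 1, 2 and 3, so replicate 3 was the lowest. AT5G28060, annotated as ribosomal protein S24e, had 152, 158 and 144 FPKM in irr Pep1, against 225, 248 and 238 FPKM in irr water (-0.64 ± 0.09, limma adjusted p = 0.0146). Its groups did not overlap.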
